A study of Mus musculus with 4 samples.

Results

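The respiratory chain and ATP synthase of the inner mitochondrial membrane are built from 5 protein complexes, most of whose subunits are encoded in the nucleus. The genes described here were all those measured by a probe set with exactly 1 gene symbol starting with Nduf, Sdha, Sdhb, Sdhc, Sdhd, Uqcr, Cox4i, Cox5, Cox6, Cox7, Cox8 or Atp5. These were 94 of 18193 genes, read by 185 probe sets, and where a gene had several probe sets, the one with the highest average signal across the 4 arrays stood for it. By textbook composition, 80 of the 94 encode subunits: 34 of complex I, 4 of complex II, 8 of complex III, 17 of complex IV and 17 of complex V. The remaining 14 are assembly factors of complexes I (Ndufaf1 to Ndufaf8) and II (Sdhaf1 to Sdhaf4), the supercomplex factor Cox7a2l, and Ndufa4l2, a paralog of Ndufa4. Ndufa4 carries a complex I name and was counted with complex IV, in which it is now placed.

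Mice had been subjected to social threat repeatedly (environment labelled HighThreat) or kept as controls (LowThreat), and RNA was taken from the prefrontal cortex. Each group had 2 pools, each combining RNA of 5 mice and hybridised to 1 Affymetrix MOE430 2.0 array, on which a probe set of short oligonucleotides reads each transcript. Values are log2 expression after RMA, and a positive difference means higher in threat. The sources used here do not give strain, sex, age or the type of encounter, nor say whether pools shared a cage or day. The p-values therefore set each difference against the spread between these pools, partly estimated over all probe sets, and not against that between single mice.

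Complex I takes electrons from NADH and complex II takes them from succinate. Ubiquinone carries them to complex III, and cytochrome c carries them on to complex IV, which reduces oxygen. The protons pumped along the way drive complex V, the ATP synthase. In cortex this pathway makes most of the ATP that neurons spend on ion gradients and synaptic transmission, and fast-spiking parvalbumin interneurons are known for dense mitochondria.

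Arrays correlated at 0.9942 to 0.9961 across probe sets. Of 10 cortical markers, 8 lay above 0, with a median difference of 0.10. Both threat pools lay above both control pools for 1 (Slc17a7, 0.23), against 26.2% of all genes. They lay below both control pools for 2 (Tbr1, -0.53, and Neurod6, -0.39), against 18.8% of all genes. None of the 10 lay under 4.25, the top value among 27 control probe sets for Bacillus genes, used here as a guide to background. Of 13 markers of other brain regions, only the cerebellar Gabra6 lay under it in all pools. Cbln1 had 8.17 and 8.04 in the threat pools and 7.93 and 7.55 in the control pools, Prkcd 6.36 and 6.50 in the threat pools and 7.92 and 6.74 in the control pools, and Oxt 7.25 and 7.05 in the threat pools and 7.68 and 7.49 in the control pools. Myelin and vessel wall markers had the lowest medians of the cell type lists. Of 11 measured myelin genes, 11 were lower in both threat pools than in both control pools, against 18.8% of all genes. Their median log2 difference (threat minus control) was -0.97. Their summed linear signal was 11700 and 14210 in threat pools 1 and 2, against 26110 and 20520 in control pools 1 and 2. Vessel wall markers had a median of -1.07 and were lower in this way in 8 of 10 genes, with summed signals of 3592 and 4409 in the threat pools and 5037 and 8778 in the control pools. Neuronal markers had a median difference of -0.02 over 12 genes and summed signals of 49730 and 50730 in the threat pools, against 49110 and 53300 in the control pools. Of these 12, 3 were higher in both threat pools than in both control pools, among them Slc17a7 (0.23) and Stmn2 (0.17). Lower in this way were 5, among them Gad1 (-0.42) and Gad2 (-0.275). Sums for astrocytes were 24020 and 27090 in the threat pools and 28620 and 28790 in the control pools, for microglia 8091 and 9058 in the threat pools and 9975 and 9164 in the control pools, and for endothelium 2614 and 3049 in the threat pools and 2896 and 3481 in the control pools. Lower in both threat pools than in both control pools were 5 of 10 astrocyte, 4 of 9 microglial and 5 of 10 endothelial markers. No marker on these lists was higher in that way. The part of cell composition in the values that follow was not tested, and in such bulk RNA fewer cells of a type and less RNA per cell cannot be told apart.

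Read by the brightest probe set of each gene, respiratory chain genes hardly differed between threat and control. Over the 94 genes the median log2 difference was 0.02, the same to 2 decimals as over all 18193 genes (0.02), and beside 0.04 over the 2539 bright genes, those with a mean of at least 10. In 61 members (64.9%) the difference was above 0, against 55.7% of all genes and 63.3% of bright genes. The lowest member was at -0.49 (Cox8c) and the highest at 0.28 (Cox7c), so that none reached 1.5-fold. Differences of at most 0.1 in either direction were found in 68 members (72.3%), against 56.1% of bright genes and 43.7% of all genes. Small differences between threat and control were thus more frequent in members than in bright genes, which include 74 of the members and were not matched for signal. The median gap between pools of 1 group was larger in members than in bright genes, as given below.

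No member was called at an adjusted p under 0.05 with limma, nor was any of the 45037 probe sets tested (0.0% called), and 0.42 was the lowest adjusted p among members. At an unadjusted p under 0.05, no member was higher in threat and 2 were lower (Cox8c and Atp5pb), while of all genes 4.9% were higher and 5.76% lower, and of bright genes 2.05% and 4.33%. Of the 80 other member probe sets above the Bacillus values, 1 was higher at that threshold, a smaller share than the 4.87% of all probe sets. Lower were 9 of the 80, a larger share than the 5.73% of all probe sets. Of the 50 among them with a mean of at least 10, 0 were higher and 6 lower. The 95% interval of the difference, from limma's moderated standard error, had a median half-width of 0.26. By the brightest probe set, it lay inside 1.5-fold in both directions for 90 members, inside 1.25-fold for 50 and inside 1.2-fold for 13. It reached 1.5-fold for Cox6b2, Cox7c, Cox8c and Ndufaf5. These intervals rest on 2 residual degrees of freedom plus the information limma takes from all probe sets, and on pools rather than single animals. They do not bound the other probe sets of a gene, some of which lay farther from 0, as given further on.

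**Figure D1:**
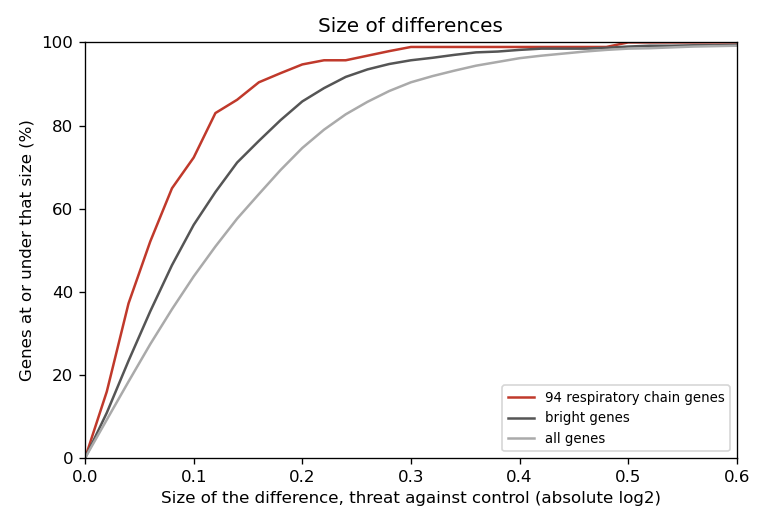
Share of genes (%, vertical axis) whose absolute log2 difference between threat and control was at or under the size on the horizontal axis, for the 94 respiratory chain genes, bright genes (mean at least 10) and all genes. At a size of 0.1 the curve of the respiratory chain genes stands at 72.3%, above bright genes at 56.1% and all genes at 43.7%.

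Few members had pools that did not overlap. In 12 members both threat pools lay above both control pools (12.8%, against 26.2% of all genes and 30.0% of bright genes), and in 8 both lay below (8.51%, against 18.8% and 18.4%). Such genes are called separate from here on, and the pools of 74 members overlapped. Both shares were under those of all genes and of bright genes. The split of 12 and 8 was 19 and 5 when each array was centred on its median, and 9 and 14 when it was centred on the bright genes.

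**Figure D2:**
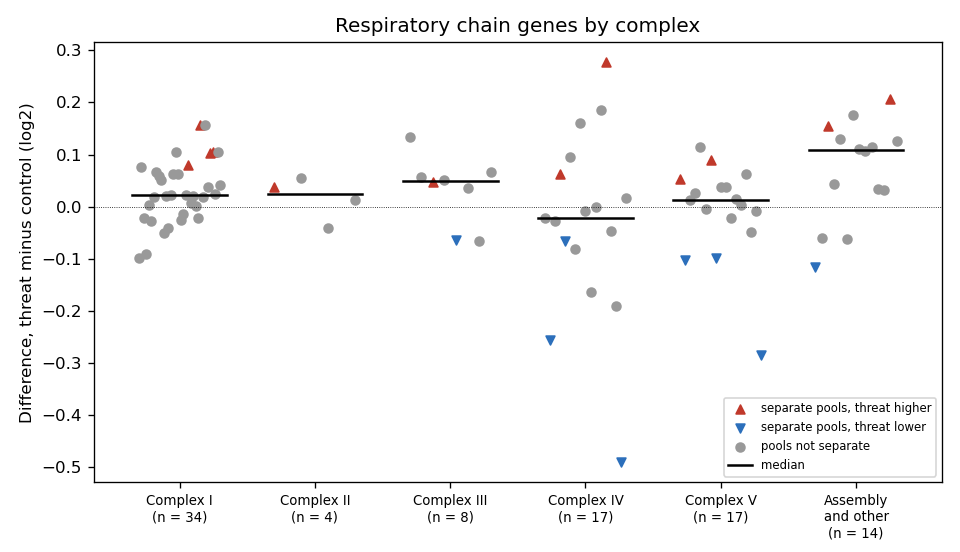
Log2 difference, threat minus control (vertical axis), of each of the 94 genes by complex, with the median of each group as a bar. Triangles mark genes whose threat and control pools do not overlap. Most points lie within 0.1 of 0, and the medians of complexes I to V lie between -0.02 and 0.05.

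The pools of 1 group differed more than the groups did. Control pool 1 exceeded control pool 2 in 84 of 94 members (89.4%), with a median gap of 0.14, while this held for 55.4% of all genes (median gap 0.03) and 54.2% of bright genes (0.01). Threat pool 1 exceeded threat pool 2 in 73 members (77.7%, median gap 0.05), against 56.9% of all genes. The order of the controls held in each complex: 33 of 34 in complex I, 4 of 4 in complex II, 7 of 8 in complex III, 11 of 17 in complex IV and 16 of 17 in complex V. It held in 13 of the 14 assembly factors and other members, and in 71 of the 74 bright members. The tissue isoforms of complex IV were an exception, with control pool 1 higher in 2 of 7.

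The direction of the comparison therefore depended on which pools were set against each other. Threat pool 1 minus control pool 1 had a median of -0.02, with 39 of 94 members above 0. Threat pool 2 minus control pool 2 had a median of 0.07, with 73 of 94 above 0. Over all genes these medians were 0.02 and 0.03. Leaving out control pool 1 brought the median of the members to 0.09 and leaving out control pool 2 to -0.05, and it was -0.01 without threat pool 1 and 0.06 without threat pool 2. The number of members above 0 was 77 without control pool 1, 23 without control pool 2, 40 without threat pool 1 and 64 without threat pool 2.

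Other measures also differed between pools of 1 group. The 8 markers of parvalbumin interneurons summed to 6097 and 5565 in threat pools 1 and 2, against 7531 and 6604 in control pools 1 and 2. Of these 8, 4 lay above 0, and their median difference was -0.03. Gad1, the brightest of the 8 and also counted among the neuronal markers, was separate and lower (-0.42). Kcnab3 was separate and higher (0.285). The vessel wall and myelin sums above also differed between the controls, in opposite orders. As signs of RNA integrity, the log2 ratio of 3′ to 5′ signal was 0.66 and 0.53 in threat pools 1 and 2 for the Actb control probe sets, against 0.59 and 0.50 in control pools 1 and 2. For Gapdh it was 0.03 and -0.03 in threat pools 1 and 2, against -0.02 and -0.05 in control pools 1 and 2. Both ratios were higher in pool 1 than in pool 2 of each group, as were most members, and the part of this in the values was not tested.

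**Figure D3:**
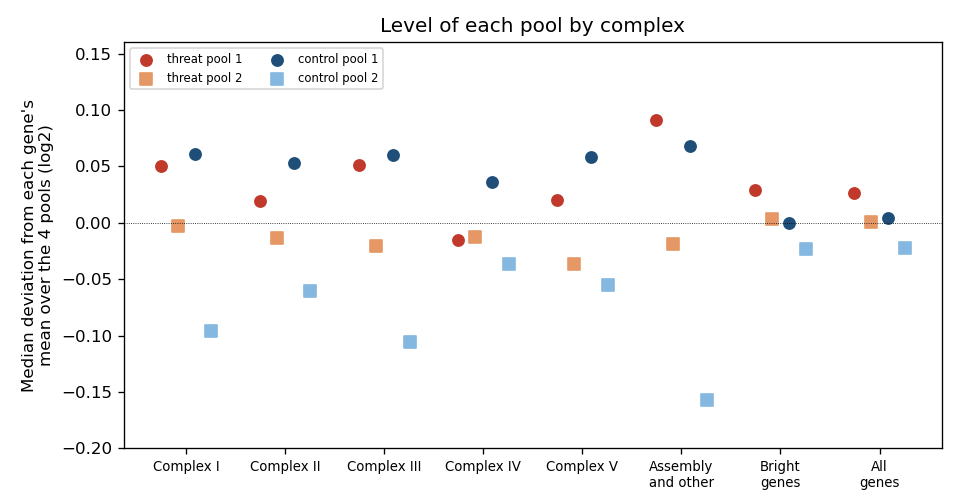
Median over genes of each pool's deviation from the gene's mean over the 4 pools (log2, vertical axis), by complex, with bright genes and all genes at the right. Control pool 1 lies above control pool 2 in each group of respiratory chain genes, and over all members the medians were 0.04 and -0.02 in threat pools 1 and 2 and 0.06 and -0.09 in control pools 1 and 2.

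Some sequence features, which the choice of members did not use, were more frequent in promoters of these genes than in all promoter windows. NRF1 (nuclear respiratory factor), GABP and YY1 are known to bind promoters of many of these genes. RefSeq promoter windows (GRCm38.p6, 250 bases before to 50 after the start) were matched for 78 of the 94 genes, in 83 windows. The letters CGCANGCG, searched for NRF1 on both strands, were in 32 windows (38.6%), against 8.21% of all 32851 promoter windows. CCGGAAG, for GABP, was in 22 (26.5%, against 8.86%), and AAGATGGC, for YY1, in 10 (12%, against 2.75%), also on both strands. At least 1 of the 3 was in 53 windows (63.9%, against 17.6%). A longer form of the NRF1 motif, which was searched before this shorter one, was in 20 windows (24.1%, against 4.6%), and with it at least 1 of the 3 was in 45 (54.2%, against 14.7%). All windows were taken without matching for base composition, and the part of base composition in these shares was not tested. A match of letters describes the sequence and does not show binding.

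Here 4 such windows are shown. They are of members with separate pools, from the catalytic cores of complexes I and V or with the largest difference among bright members. Ndufs1 and Atp5a1 also fit this description but are not shown, and neither had a window with any of the 3 motifs. Capitals mark the letters of GABP or YY1 found on either strand. Those of Ndufs7 (chr10:80249199-80249498, + strand) and Ndufs8 (chr19:3912725-3913024, - strand) belong to members higher in both threat pools. Those of Atp5b (chr10:128083057-128083356, + strand) and Atp5pb (chr3:105959214-105959513, - strand) belong to members lower in both threat pools. Ndufs7 and Atp5pb both hold the YY1 letters, in opposite orientation, Ndufs8 holds those of GABP, and Atp5b holds none of the 3.
Ndufs7: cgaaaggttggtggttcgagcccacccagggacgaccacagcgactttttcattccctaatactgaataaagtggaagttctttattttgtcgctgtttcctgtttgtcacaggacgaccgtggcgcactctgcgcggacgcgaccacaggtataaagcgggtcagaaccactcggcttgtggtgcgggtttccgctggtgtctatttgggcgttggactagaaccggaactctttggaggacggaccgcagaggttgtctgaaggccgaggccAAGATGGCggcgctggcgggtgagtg
Ndufs8: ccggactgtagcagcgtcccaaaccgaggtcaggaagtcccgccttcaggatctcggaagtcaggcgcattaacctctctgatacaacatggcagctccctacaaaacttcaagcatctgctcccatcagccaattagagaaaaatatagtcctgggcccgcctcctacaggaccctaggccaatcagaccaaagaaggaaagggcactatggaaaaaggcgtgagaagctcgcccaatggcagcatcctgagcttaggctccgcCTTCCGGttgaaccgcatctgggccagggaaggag
Atp5b: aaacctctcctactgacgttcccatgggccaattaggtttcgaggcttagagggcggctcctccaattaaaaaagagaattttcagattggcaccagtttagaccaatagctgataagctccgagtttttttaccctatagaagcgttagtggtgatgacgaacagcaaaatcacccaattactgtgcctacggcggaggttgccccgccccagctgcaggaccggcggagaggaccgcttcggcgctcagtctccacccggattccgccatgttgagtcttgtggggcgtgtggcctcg
Atp5pb: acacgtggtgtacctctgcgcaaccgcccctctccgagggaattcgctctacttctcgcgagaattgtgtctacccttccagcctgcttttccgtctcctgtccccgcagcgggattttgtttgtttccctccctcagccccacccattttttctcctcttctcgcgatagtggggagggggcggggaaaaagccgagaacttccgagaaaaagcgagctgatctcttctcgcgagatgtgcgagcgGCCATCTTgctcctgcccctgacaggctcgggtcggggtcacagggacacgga

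Complex I was the largest group, with a median difference of 0.02. The core holds the flavin and iron-sulfur clusters that pass electrons from NADH to ubiquinone. All 6 measured core subunits were higher in threat on average, with a median of 0.10, and they were also above 0 in both comparisons of pools with the same number. Of the 28 accessory subunits, which surround the core, 19 lay above 0, with a median of 0.02. Setting pool 1 against pool 1, 7 of 28 accessory subunits were above 0, and setting pool 2 against pool 2, 25 of 28 were. Without control pool 2, 3 of 6 core and 3 of 28 accessory subunits lay above 0, without threat pool 1 these were 4 of 6 and 14 of 28, and the median of all 34 was -0.04 without control pool 2 and 0.11 without control pool 1. By the brightest probe set, 4 of the 34 subunits were separate and higher (11.8%, against 26.2% of all genes and 30.0% of bright genes). None of the 34 was separate and lower (against 18.8% and 18.4%). Second, also bright probe sets of Ndufb5 and Ndufb6 were separate and lower, and 1 of Ndufc2 was separate and higher, with values given further on.

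Ndufs1, the subunit with the most iron-sulfur clusters, measured 10.92 and 10.88 in threat pools 1 and 2, against 10.78 and 10.70 in control pools 1 and 2. Both threat values were above both controls, with a difference of 0.16 (95% interval -0.07 to 0.39). It was read by 1 probe set, and limma's adjusted p was 0.55. Ndufs8, which carries iron-sulfur clusters close to ubiquinone, had 12.50 and 12.49 in the threat pools, against 12.43 and 12.35 in the control pools. Its difference was 0.11 (interval -0.12 to 0.33), and of its 5 other probe sets above the Bacillus values, 4 lay above 0 and 1 of these was separate. Ndufs7, which holds the last cluster of the chain, had 11.53 and 11.47 in the threat pools, against 11.45 and 11.34 in the control pools. Its difference was 0.10 (interval -0.13 to 0.34), and its second probe set was separate in the same direction at 0.08. Without control pool 2 these differences were 0.06 for Ndufs8 and 0.05 for Ndufs7, and without control pool 1 Ndufs7 was at 0.15. The windows of Ndufs7 and Ndufs8 are those printed above.

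The other core subunits had overlapping pools. Ndufv1, the flavoprotein that oxidises NADH, was at 11.88 and 11.76 in the threat pools, against 11.85 and 11.73 in the control pools, a difference of 0.02. Ndufv2, its iron-sulfur partner, was at 12.23 and 12.19 in the threat pools, against 12.23 and 11.98 in the control pools. Its difference was 0.11, and -0.02 without control pool 2. Ndufs3, of the module that binds ubiquinone, differed by 0.02. Ndufb7, an accessory subunit of the membrane arm, was the single accessory subunit with separate pools, at 12.002 and 11.97 in the threat pools and 11.95 and 11.86 in the control pools, a difference of 0.08 (0.03 to 0.13 with either control pool left out). The 11 Ndufb subunits had a median of 0.02 and the 12 Ndufa subunits of complex I (Ndufab1 included) a median of 0.01. Accessory subunits ranged from -0.10 for Ndufa1, of the membrane arm, to 0.16 for Ndufs4, whose pools overlapped. Ndufc2 had 4 probe sets above the Bacillus values with differences between -0.44 and 0.22. The brightest was at -0.02, and the one at -0.44 had 4.47 and 4.59 in the threat pools and 5.03 and 4.90 in the control pools. The one at 0.22 was bright and separate, with 12.24 and 12.22 in the threat pools and 12.10 and 11.93 in the control pools. Ndufb4 was read under a single symbol by a probe set at 4.18 and 4.05 in the threat pools and 4.03 and 4.26 in the control pools, close to the top Bacillus value.

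Complex II, which is also the succinate dehydrogenase of the citric acid cycle, had a median of 0.02 over its 4 subunits, and it was -0.04 without control pool 2 and -0.02 without threat pool 1. Sdha, the flavoprotein, measured 11.84 and 11.85 in the threat pools, against 11.82 and 11.80 in the control pools. Its pools were separate at a difference of 0.04, and its other probe set above the Bacillus values was separate at 0.13. Sdhb, the iron-sulfur subunit, had 12.35 and 12.15 in the threat pools and 12.26 and 12.12 in the control pools, which overlap (0.06). The membrane anchors Sdhc and Sdhd were at -0.04 and 0.01.

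Complex III passes electrons from ubiquinol to cytochrome c, and 6 of its 8 measured subunits lay above 0, with a median of 0.05 and a range of -0.07 (Uqcrh) to 0.13 (Uqcr10). Leaving out control pool 2 gave a median of -0.04 and leaving out control pool 1 one of 0.10. Uqcrb, a small subunit of the complex, measured 13.51 and 13.47 in the threat pools and 13.43 and 13.45 in the control pools, a difference of 0.05. Its second probe set was at -0.09 with separate pools in the opposite order, so the direction of Uqcrb depends on the probe set. Uqcrc2, a core protein on the matrix side, had 11.77 and 11.75 in the threat pools, against 11.85 and 11.80 in the control pools, a difference of -0.06 (-0.04 without control pool 1). That of Uqcrb was 0.03 without threat pool 1. Uqcrfs1, the Rieske iron-sulfur protein, was at 0.04 with overlapping pools.

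Complex IV, cytochrome c oxidase, had a median of -0.02 over 17 nuclear subunits, and 11 of the 17 lay below 0. It was the one complex with a median below 0 in the values as deposited, while with arrays centred on bright genes complexes I (-0.0029), II (-0.0009) and V (-0.01) were below 0 as well. The 10 ubiquitous subunits had a median of -0.01 and the 7 tissue isoforms a median of -0.16. None of these 7 isoforms was a bright gene. The median of all 17 was 0.03 without control pool 1, and 0.01 under both cyclic loess and median centring. Several nuclear subunits of this complex exist as isoforms made in different tissues, and the ones below were set beside their ubiquitous partners for threat against control only, since levels of different probe sets cannot be compared.

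Among the isoforms, Cox8c, described as the testis form of subunit 8, differed most of all members. It measured 7.23 and 7.13 in the threat pools, against 7.78 and 7.57 in the control pools. The difference was -0.49 ± 0.11 (SE, interval -0.77 to -0.21; limma, adjusted p = 0.42). Its second probe set had 5.10 and 5.31 in the threat pools and 5.32 and 5.19 in the control pools, which overlap at a difference of -0.05. The ubiquitous partner Cox8a was at -0.05 with overlapping pools, and Cox8b, the heart and muscle form, at -0.19 (-0.04 without control pool 2). Cox8b had low signal, with 4.97 and 5.18 in the threat pools and 5.11 and 5.415 in the control pools.

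Cox4i2, the form of subunit 4 known from lung and from hypoxia, had 5.08 and 4.85 in the threat pools and 5.16 and 5.28 in the control pools, a difference of -0.26 with 1 probe set at low signal (-0.14 without threat pool 2). Its partner Cox4i1 was at 13.23 and 13.18 in the threat pools, against 13.28 and 13.17 in the control pools, a difference of -0.02 that turned to 0.01 under cyclic loess and median centring. Cox6a2, the heart and muscle form that parvalbumin interneurons also make, had 7.93 and 7.46 in the threat pools and 7.72 and 7.48 in the control pools. These overlap, and the difference was 0.10. Pool 1 was the higher one in both groups, as in most members and in the sum of parvalbumin interneuron markers, so this order is not particular to Cox6a2. Its partner Cox6a1 was separate, at 13.48 and 13.54 in the threat pools and 13.58 and 13.57 in the control pools, a difference of -0.07. Its second probe set lay at -0.02, and without threat pool 1 the difference was -0.04.

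The remaining isoforms had overlapping pools. Cox7a1 of heart and muscle was at -0.16 (-0.02 without threat pool 1), while its partner Cox7a2 was at -0.0001. Cox7a1 had low signal, with 5.24 and 5.53 in the threat pools and 5.47 and 5.63 in the control pools. Cox6b2 and Cox7b2, described from testis, were at 0.16 and 0.19, and Cox6b1, the partner of Cox6b2, at -0.08. Cox7b2 lay close to the top Bacillus value of 4.25, with 4.24 and 4.61 in the threat pools and 4.19 and 4.29 in the control pools. Markers of striated muscle had a median of 0.01 over 12 genes, and 3 of these stayed under the top Bacillus value in all pools.

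Cox5b, which binds zinc on the matrix side of the complex, had 13.70 and 13.67 in the threat pools and 13.66 and 13.58 in the control pools, a difference of 0.06 (0.03 without control pool 2). A dim probe set of Cox5b had 5.91 and 5.67 in the threat pools and 5.18 and 5.25 in the control pools, a difference of 0.58 (adjusted p = 0.41 in limma's test). Its other bright probe sets lay between -0.02 and 0.08. Cox7c was represented by a dim probe set at 5.21 and 4.88 in the threat pools and 4.83 and 4.70 in the control pools. Its difference of 0.28 (interval -0.07 to 0.62) was the highest of all members over the 4 pools. Without threat pool 1 it was 0.12, below that of Cox6b2, and without threat pool 2 it was 0.44. Its other probe set, under the Bacillus values, was at -0.04.

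Complex V had a median of 0.01, with 10 of 17 subunits above 0. Leaving out control pool 2 gave -0.07, control pool 1 0.07 and threat pool 1 -0.03. The catalytic F1 head is made of alpha and beta subunits, and their genes lay on opposite sides of 0. Atp5a1, the alpha subunit, had 12.90 and 12.93 in the threat pools, against 12.85 and 12.88 in the control pools (0.05). Atp5b, the beta subunit that holds the catalytic site, had 13.06 and 13.07 in the threat pools, against 13.17 and 13.16 in the control pools. The control pools lay 0.0111 apart and the threat pools closer, and the difference was -0.10 (interval -0.32 to 0.12), with 1 probe set. For Atp5a1 the direction was not shared, since its 2 other probe sets, at -0.05 and -0.19, were separate and lower.

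Atp5pb, subunit b of the peripheral stalk that holds the F1 head in place, was the bright member with the largest difference. It measured 12.22 and 12.18 in the threat pools, against 12.54 and 12.43 in the control pools. The difference was -0.28 ± 0.09 (SE, interval -0.52 to -0.05), or 1.22-fold (limma, adjusted p = 0.45). Its probe set is of the _s_at class, which can match several transcripts. The other probe set, outside that class, had 11.65 and 11.60 in the threat pools, against 11.66 and 11.52 in the control pools, a difference of 0.04, so the lower value of Atp5pb in threat rests on 1 probe set.

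Subunit c of the membrane ring is encoded by 3 genes for the same mature protein. Atp5g1 was at -0.0049 with overlapping pools. Atp5g2 had 11.42 and 11.39 in the threat pools and 11.38 and 11.26 in the control pools (0.09, separate). Atp5g3 had 12.78 and 12.65 in the threat pools, against 12.82 and 12.81 in the control pools (-0.10, separate). The difference of Atp5g2 was 0.03 without control pool 2, and that of Atp5g3 -0.03 without threat pool 2. The 3 genes thus did not lie on 1 side of 0. The remaining subunits of complex V had overlapping pools, with Atp5e, the epsilon subunit, the highest at 0.11.

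**Figure D4:**
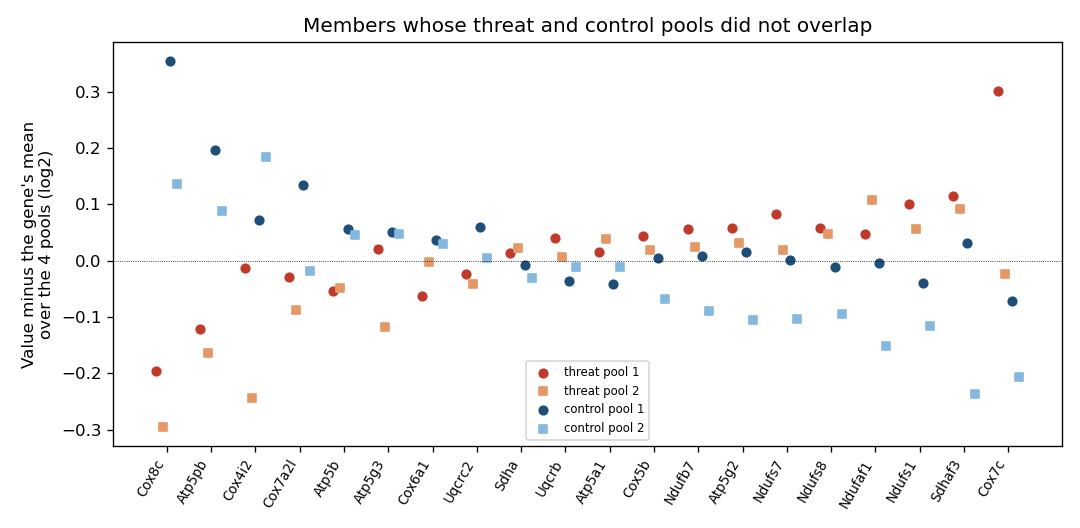
The 20 members whose threat and control pools did not overlap, ordered by difference, with each pool's value minus the gene's mean over the 4 pools (log2, vertical axis). Cox8c, Atp5pb and Cox4i2 lie at the lower end and Cox7c at the higher end, and the other 16 members differ by at most 0.21 in either direction.

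Assembly factors, which build the complexes and are not part of the finished ones, had a larger share above 0 than the subunits. Of the 12 factors of complexes I and II, 11 were above 0 (91.7%, against 55.7% of all genes), with a median of 0.11, while 50 of 80 subunits were (62.5%), and the difference between these shares was not tested. Their control pools, however, lay farther apart than that, with control pool 1 above control pool 2 in 12 of 12 and a median gap of 0.26. Without control pool 2, 5 of 12 lay above 0 with a median of -0.02, against 7 of 12 and 0.04 without threat pool 1, and without control pool 1 the median was 0.23. Separate were Sdhaf3, at 8.59 and 8.57 in the threat pools and 8.51 and 8.24 in the control pools (0.21), and Ndufaf1, at 9.18 and 9.24 in the threat pools and 9.13 and 8.98 in the control pools (0.15). Sdhaf3 helps to build the iron-sulfur subunit of complex II, and its second probe set was separate in the same direction (0.13). That probe set lay close to the top Bacillus value, at 4.48 and 4.39 in the threat pools and 4.26 and 4.36 in the control pools. Cox7a2l, which joins complexes III and IV into supercomplexes, was separate and lower, at 11.31 and 11.25 in the threat pools and 11.47 and 11.32 in the control pools (-0.12), with both other probe sets below 0. Leaving out 1 control pool gave 0.07 to 0.34 for Sdhaf3, 0.08 to 0.23 for Ndufaf1 and -0.19 to -0.04 for Cox7a2l. Ndufa4l2 was at -0.06.

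Most members with separate pools had a second probe set, which reads the same RNA of the same pools and is no independent check of the groups. Of these 20, 13 had another probe set above the Bacillus values, in 8 of them all such probe sets lay on the same side of 0, and in 4 (Ndufb7, Ndufs7, Sdha and Sdhaf3) all were separate on that side. Each of these 4 was higher in threat, by 0.04 to 0.21, but the second probe set of Sdhaf3 lay close to the top Bacillus value. The matching counts over all genes with several probe sets are not at hand. Over all 80 other member probe sets above the Bacillus values, 40 lay above 0 (against 54.0% of all probe sets), with a median of -0.0015. Of these, 10 were separate and higher (12.5%, against 23.9% of all probe sets) and 18 separate and lower (22.5%, against 19.4%).

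Several bright second probe sets were lower in threat while the brightest one of the same gene lay close to 0. These were singled out after their values were seen. For Ndufb6, of the membrane arm of complex I, the second probe set had 11.17 and 11.20 in the threat pools, against 11.66 and 11.55 in the control pools, a difference of -0.42 (limma, adjusted p = 0.42), while the brightest was at 0.02. For Ndufb5, of the same arm, it had 11.38 and 11.33 in the threat pools, against 11.77 and 11.69 in the control pools, a difference of -0.38 (limma, adjusted p = 0.43), while the brightest was at -0.01. Both are farther from 0 than any difference of complex I by the brightest probe set.

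In complex IV, Cox5a, a small subunit on the matrix side, had other probe sets at -0.30 and -0.27 and its brightest at -0.03, and Cox6c had its other one at -0.30 and its brightest at -0.01. In complex V, Atp5o, of the peripheral stalk, had its other one at -0.41 and its brightest at -0.01. Each of these probe sets was separate and had an unadjusted p under 0.05, and none passed adjustment. For these 5 genes, as for Atp5pb, the size of the difference thus depends on which probe set is read.

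Genes that work beside the complexes were described from lists. Of 32 measured assembly and maturation factors outside the symbols above, 25 lay above 0 (78.1%, against 55.7% of all genes) with a median of 0.10. Of these 32, 11 were separate and higher (34.4%, against 26.2% of all genes) and 1 was separate and lower (3.12%, against 18.8%), and the median gap of control pool 1 over control pool 2 was 0.15, above the median difference. Foxred1, needed to assemble complex I, had 8.09 and 7.74 in the threat pools and 7.62 and 7.55 in the control pools (0.33, but 0.16 without threat pool 1 and 0.50 without threat pool 2). Timmdc1, also a complex I assembly factor, had 6.89 and 6.77 in the threat pools and 7.31 and 7.10 in the control pools (-0.37). The electron carriers and ubiquinone genes had a median of 0.07 over 16 genes, with 3 separate and higher (18.8%) and 2 separate and lower (12.5%), both under the shares of all genes. Cycs, cytochrome c itself, was at 12.20 and 12.10 in the threat pools, against 12.59 and 12.53 in the control pools, a difference of -0.41 ± 0.09 (SE; limma, adjusted p = 0.42). This is farther from 0 than in any bright subunit of the complexes it connects. Pdss2, of ubiquinone synthesis, was at 0.26.

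Steps before and after the chain had medians close to 0. Over 17 genes of pyruvate dehydrogenase and the citric acid cycle the median was 0.04, with 8 separate and higher (47.1%, against 26.2% of all genes) and 3 separate and lower (17.6%, against 18.8%). Pdhx, of pyruvate dehydrogenase, was at 0.21 and Suclg2, of succinyl-CoA synthetase, at -0.16. For ATP and phosphate transport the 11 genes gave 0.02, with 2 separate and higher (18.2%) and 3 separate and lower (27.3%). Among them were the mitochondrial creatine kinase Ckmt1 at 0.18 (0.10 without threat pool 1) and the outer membrane channel Vdac3 at -0.22 (-0.12 without threat pool 2). For 16 regulators of mitochondrial biogenesis the median was -0.01, with 5 separate and higher (31.2%) and 1 separate and lower (6.25%). Ppargc1b, a coactivator of these genes, was at 0.25, and Polg2, of the mitochondrial DNA polymerase, at -0.20. With limma, no gene on these 5 lists was called after adjustment, and at an unadjusted p under 0.05 there were 2 higher and 2 lower of 92, against 4.9% and 5.76% of all genes.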

How the data were processed

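The authors deposited a table of log2 expression with 1 column per array, made with RMA per the submitters' processing notes. No source used here gives its settings or chip definition. RMA usually equalises the distributions of arrays, which hides any shift common to most genes. Of 45101 probe sets, 64 controls were left out. Gene symbols came from the platform annotation, and 10 probe sets with several symbols, of which at least 1 fitted the member symbols, were not used. Threat was compared with control over all 45037 probe sets with limma 3.58.1 in R 4.3.3 (lmFit, eBayes, two-sided, Benjamini-Hochberg). A run on simulated data used the same spread for all probe sets and changes larger than any member's difference. It therefore does not cover differences of the size reported here. With 2 pools a side, the smallest p of an exact permutation test is 0.333. The number of arrays limits the precision.

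The genes and lists were chosen with earlier results of these data known. Motifs, promoters and the 95% intervals were chosen after the data were seen. The shorter NRF1 motif and the 1.2-fold bound were added after the longer motif and the 1.25-fold bound, and the values of both are given. Named with their pool values were, per complex and direction, up to 4 separate members with the largest difference. Further named were the core of complexes I and II, F1 alpha and beta, the isoform groups, members whose probe sets lay at least 0.5 apart, and up to 2 separate genes per other list. Others named mark the ends of a range, or were chosen after their values were seen. Alternatives covered normalization, variance model, filters, probe set choice, members, pool number as a block, and leaving out each pool.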

Additional observations from a re-analysis of the deposited data

How the results depend on the processing

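No setting gave a member with an adjusted p under 0.05. Medians over the members and over each complex moved by less than 1 SD of the pools unless a pool was left out, but some changed sign: with centring on bright genes all members (-0.0018), complex I (-0.0029), II (-0.0009) and V (-0.0135), with averaged probe sets II (-0.0283), and with cyclic loess (0.0131) and median centring (0.0138) IV. With a pool left out they ran from -0.0470 to 0.0915 (all members), -0.0432 to 0.108 (complex I), -0.0432 to 0.0723 (II), -0.0366 to 0.1033 (III), -0.0406 to 0.0325 (IV) and -0.0696 to 0.0684 (V). Counts of separate members, 12 higher and 8 lower, were 19 and 5 with median centring, 9 and 14 with centring on bright genes, and 7 and 14 with probe sets averaged per gene; leaving out a pool gave 15 to 67 higher and 12 to 49 lower, where fewer pools have to be separate. Counts at an unadjusted p under 0.05, 0 higher and 2 lower, ranged over left-out pools from 0 to 2 and 1 to 2, and 1 was lower without _x_at and _s_at probe sets or with the mean of probe sets.

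Pool numbers gave a correlation of 0.33 between the deviations of same-numbered pools across probe sets, but nothing in the labels says that a number marks a shared source. With pool number as a replicate block, 1 member (Cox7c) was higher at an unadjusted p under 0.05 and no other count moved.

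Direction turned for small differences and also, with other probe sets, for Cox7c and Atp5pb, which had the highest difference of all members and the lowest of the bright ones: Cox4i1 (0.0144, 0.0138) and Cox7a2 (0.0331, 0.0357) with cyclic loess and median centring, Atp5g1 (0.0310) and Ndufc2 (0.0147) with median centring, Ndufv1 (-0.0010) and Ndufs3 (-0.0074) with centring on bright genes, Cox7c (-0.0427), Cox5b (-0.0196) and Atp5pb (0.0375) without _x_at and _s_at probe sets, and Uqcrb (-0.0191), Atp5a1 (-0.0621) and Atp5g1 (0.0509) with the mean of probe sets. Over left-out pools, the log2 difference spanned 0 for Atp5g1 (-0.1188 to 0.1089), Cox4i1 (-0.0782 to 0.0341), Cox6a2 (-0.1422 to 0.3341), Cox6b2 (-0.1151 to 0.4345), Cox7a2 (-0.0366 to 0.0362), Cox8a (-0.127 to 0.0325), Ndufc2 (-0.0965 to 0.0541), Ndufs3 (-0.0477 to 0.0838), Ndufv1 (-0.0353 to 0.0844), Ndufv2 (-0.0163 to 0.2267) and Sdhb (-0.0423 to 0.1536). The cause was not tested in any of these. With 2 pools a side, the median interval half-width of 0.26 bounds what could be told from 0.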
